A study of Fragaria vesca with 8 samples.

Results

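Among the genes counted in *F. vesca* fruits, 135 of 34009 were raised upon FvVND4c overexpression but rose by less than 0.5 on the log2 scale, or not at all, upon FvMYB46 overexpression. The genes were chosen by their measured levels. Counts were scaled to CPM (reads of a gene per 1000000 reads counted in that library), and the log2 ratio of overexpression (OX) to the empty vector (EV) of the same experiment was taken between group means after 0.5 CPM had been added. A member had a log2 ratio of at least 1.5 with FvVND4c, a log2 ratio under 0.5 with FvMYB46, and over 3 counts in total in the 4 EV libraries. Genes that start on chromosome 5 between 1900000 and 2100000 or on chromosome 4 between 22600000 and 22900000 were left out, which removed 3 genes that met the other criteria. Of 21666 genes that passed the count criterion outside these windows, 374 reached the FvVND4c threshold, and the other 239 of them were raised by both factors. High levels with FvVND4c and at most a small rise with FvMYB46 are therefore how the members were picked and are described here without a test.

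VND proteins are NAC-domain transcription factors that switch on the formation of the secondary cell wall, the thick lignified layer laid down in water-conducting vessel cells. In *Arabidopsis*, MYB46 acts below the VND proteins as a second-layer switch and turns on genes for cellulose, xylan and lignin. Vessel cells also empty themselves by programmed cell death, which VND proteins switch on in *Arabidopsis*. Lignin and flavonoids are both built from phenylpropanoid precursors.

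The fruits were of the white-fruited *F. vesca* accession "Yellow Wonder". They were infiltrated with agrobacterium at the transition from green to white and collected 7 days later. Each group holds 2 libraries: *35S:FvVND4c* (FvVND4c-OX), its own empty vector (FvVND4c-EV), *35S:FvMYB46* (FvMYB46-OX) and its own empty vector (FvMYB46-EV). All fruits were wild type apart from the infiltrated construct, and all, the controls included, had received agrobacterium. Expression from the 35S promoter was transient and reached the cells of the injected flesh, so these groups are not stable lines, and the share of cells that carried a construct is unknown here. Several fruits were ground for each treatment. The methods state 3 biological replicates while the labels list 2 libraries per group, and how the fruits were divided over the libraries is unstated, so spreads and calls refer to libraries.

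The 8 libraries held between 9765362 and 12845942 counts, so that a level of 3 counts corresponds to 0.234 to 0.307 CPM. Gene identifiers are those of *F. vesca* v4.0.a2, and 0 of them had an entry in the available RefSeq table of 24946 genes, which belongs to another assembly (FraVesHawaii_1.0). The members are therefore given by identifier and position, with no name or function. Whether a member is one of the overexpressed genes, a wall gene or a marker of any cell type could not be read from these files, and the labelled tissue could not be checked against markers. In a bulk fruit sample, fewer cells of a type and less RNA per cell cannot be told apart.

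**Figure D1:**
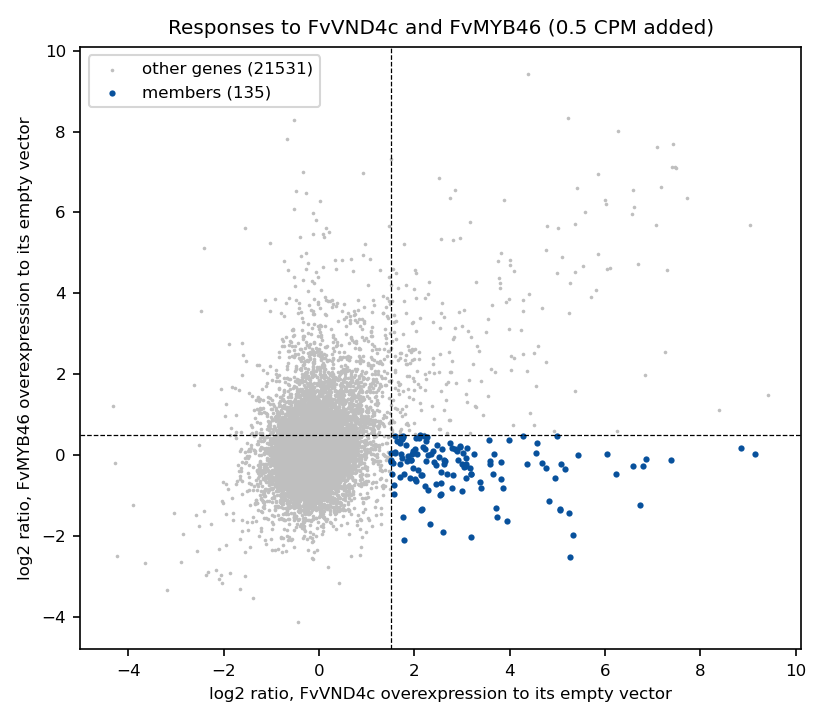
Each point is a gene that passed the count criterion, with the log2 ratio of FvVND4c-OX to FvVND4c-EV on the horizontal axis and that of FvMYB46-OX to FvMYB46-EV on the vertical axis, 0.5 CPM added to each group mean. The 135 members, in blue, fill the corner that the dashed thresholds of 1.5 and 0.5 cut out, and reach from -2.51 to 0.49 on the vertical axis.

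In FvVND4c-OX the members together took a share of the library that was several times that of every other group. Summed over members, the level was 1533 and 1587 CPM in FvVND4c-EV and 12844 and 12629 CPM in FvVND4c-OX. It was 2061 and 1762 CPM in FvMYB46-EV and 1747 and 1742 CPM in FvMYB46-OX. The members thus took 1.28% and 1.26% of the counts in FvVND4c-OX and between 0.153% and 0.206% in the other 6 libraries. The 5 members with the highest CPM supplied 29.6% and 32.6% of the member sum in the FvVND4c-OX libraries. The rule required a rise of every member, so that the sum rose through many genes follows from the choice.

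The typical member held few counts without FvVND4c. Its median level was 1.71 CPM in FvVND4c-EV, 1.91 CPM in FvMYB46-EV and 1.37 CPM in FvMYB46-OX, against 21.9 CPM in FvVND4c-OX. Over all genes that passed the count criterion, the medians of the same 4 groups lay close together, at 11.1 CPM, 10.4 CPM, 11.5 CPM and 10.3 CPM. A mean below 1 CPM in FvVND4c-EV was seen for 57 members (42.2%), beside 20.5% of all genes and 34.3% of the genes raised by both factors. The rule used the level in FvVND4c-EV and favoured low values there, so nothing is read from these shares. Upon FvVND4c overexpression 43 members remained under 10 CPM, 64 lay between 10 and 100 CPM and 28 reached 100 CPM or more, within a range from 1.21 to 1496 CPM. Levels in CPM are not divided by gene length, so they rank the libraries for a gene and not the genes among each other.

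**Figure D2:**
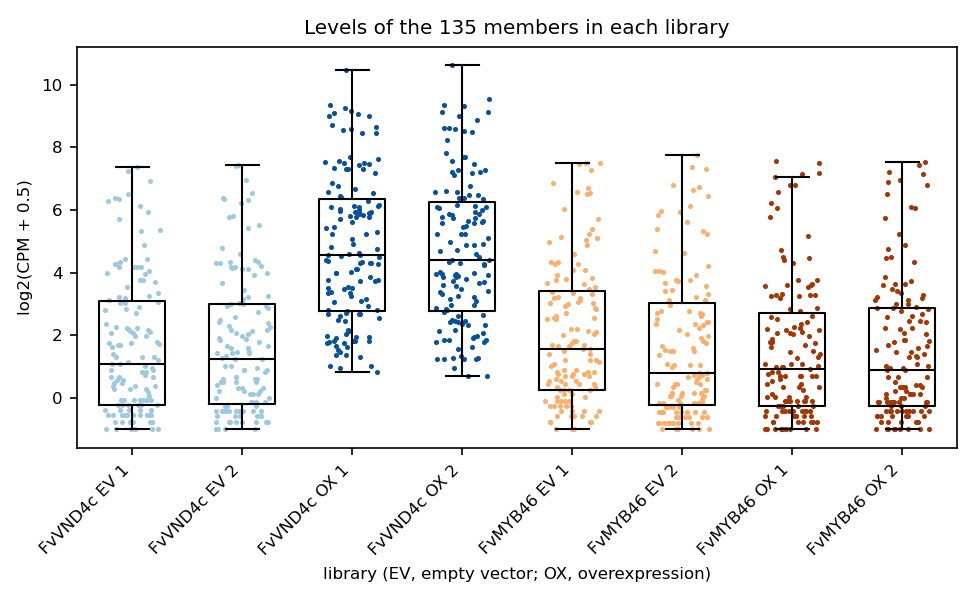
Each point is a member in a library, with the level as log2(CPM + 0.5) on the vertical axis; boxes span the quartiles with the median as a line, and whiskers reach the farthest member within 1.5 box heights. The 2 FvVND4c-OX libraries stand above the other 6, whose boxes overlap.

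The size of the FvVND4c response varied widely among members. The log2 ratio ran from 1.5 to 9.15 with a median of 2.61, while the median of all genes was -0.12. It was under 2 in 33 members, from 2 to under 3 in 49, from 3 to under 5 in 35 and at least 5 in 18. The lower FvVND4c-OX library was at least 2 times the higher FvVND4c-EV library in all 135 members. The threshold of 1.5 favours that order and its share over all genes was not counted, so nothing is read from it. With the first or the second FvVND4c-OX library left out, 126 and 131 of the members still met the rule, so a few reached the threshold of 1.5 only through 1 of them. In the same way, both FvVND4c-OX libraries were above both FvVND4c-EV libraries in 135 members, where 17.5% of all genes showed that order, and nothing is read from it because the rule used it. The 2 FvVND4c-OX libraries differed by a median of 0.18 (absolute log2 ratio) over members and 0.20 over all genes.

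The rule set no direct threshold between the FvVND4c-OX libraries and the FvMYB46 libraries, but the means of all groups entered it. Both FvVND4c-OX libraries were above each of the other 6 libraries in 131 members, beside 4.52% of all genes. The same order was seen in 122 of the 239 genes raised by both factors, which were chosen for a rise in FvMYB46-OX. The 4 exceptions, chosen after their values were seen, were FvH4_6g52190, FvH4_5g36920, FvH4_6g07450 and FvH4_6g20130, all of them members with a higher level in FvMYB46-EV than in FvVND4c-EV. The order follows in large part from the thresholds, since a member low in FvMYB46-EV could not be high in FvMYB46-OX. Nothing is therefore read from it.

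The gene with the largest log2 ratio was FvH4_5g34111 (chromosome 5, 24789468 to 24797533, overlapping another gene). Its level was 0.18 and 0.0841 CPM in FvVND4c-EV, 418 and 299 CPM in FvVND4c-OX, 0.171 and 0.156 CPM in FvMYB46-EV, and 0.0862 and 0.254 CPM in FvMYB46-OX. It was at the edge of detection in the 6 other libraries and well counted in both FvVND4c-OX libraries. Its 3 pooled FvVND4c-EV counts gave a ratio of 2787 with a 95% exact interval of 953 to 13520, which covers counting error only.

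Next came FvH4_2g16940 (chromosome 2, 14707578 to 14709401), which also had the highest CPM of the members in FvVND4c-OX, a value not divided by gene length. It measured 2.98 and 2.52 CPM in FvVND4c-EV, 1423 and 1569 CPM in FvVND4c-OX, 3.60 and 1.09 CPM in FvMYB46-EV, and 2.76 and 2.63 CPM in FvMYB46-OX. The FvMYB46-OX libraries lay between the pair of FvMYB46-EV libraries, with a log2 ratio of 0.17, while the FvVND4c log2 ratio was 8.85. The FvVND4c change fitted with edgeR was 9.20 on the log2 scale (SE 0.28).

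FvH4_6g09620 (chromosome 6, 5740788 to 5743982) measured 2.16 and 1.26 CPM in FvVND4c-EV, 375 and 363 CPM in FvVND4c-OX, 2.74 and 1.56 CPM in FvMYB46-EV, and 1.55 and 2.29 CPM in FvMYB46-OX. FvH4_1g13060 (chromosome 1, 7195820 to 7198114) had a like profile, with 3.79 and 3.45 CPM, then 404 and 392 CPM, then 3.94 and 2.88 CPM, then 2.93 and 2.54 CPM in the same order of groups. Outside FvVND4c-OX both genes stayed under 4 CPM, and their log2 ratios with FvVND4c were 7.38 and 6.60. FvH4_7g12740 (chromosome 7, 11555647 to 11564344) started lower, at 0.902 and 0.757 CPM in FvVND4c-EV, and reached 156 and 137 CPM in FvVND4c-OX. Its FvMYB46-EV libraries held 1.20 and 0.545 CPM and its FvMYB46-OX libraries 0.517 and 0.763 CPM, again with no separation between those groups.

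Another 4 of the 10 largest log2 ratios belonged to genes that were barely counted outside FvVND4c-OX. FvH4_4g12460 (chromosome 4, 16135497 to 16136398) had 0.361 and 0.252 CPM in FvVND4c-EV and 91.6 and 93.6 CPM in FvVND4c-OX, with 0.171, 0.0778, 0.172 and 0 CPM in the FvMYB46 libraries. FvH4_3g17820 (chromosome 3, 11320038 to 11322384) had 0.18 and 0.337 CPM in FvVND4c-EV and 62.9 and 49.97 CPM in FvVND4c-OX, with 0.599, 0.156, 0.259 and 0 CPM in the FvMYB46 libraries, EV first. All the FvMYB46 values of the former lay at or below 3 counts, as did those of the latter but for the first FvMYB46-EV library. FvH4_4g06310 (chromosome 4, 5620414 to 5621547) went from 0.812 and 0.252 CPM in FvVND4c-EV to 67.3 and 67.2 CPM in FvVND4c-OX, beside 0.514, 0.234, 0.345 and 0.424 CPM in the FvMYB46 libraries. FvH4_7g27750 (chromosome 7, 20689307 to 20692872) had 0 and 0.252 CPM in FvVND4c-EV and 27.5 and 25.5 CPM in FvVND4c-OX, and at most 0.0856 CPM in an FvMYB46 library. On its 3 pooled FvVND4c-EV counts the ratio was 204, with a 95% exact interval of 69.3 to 991.

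With no count in either FvVND4c-EV library, 2 members allowed only a lower bound. FvH4_4g09530 (chromosome 4, 11220387 to 11225525) reached 3.35 and 4.81 CPM in FvVND4c-OX, which is 30.8-fold above 3 counts over the 2 FvVND4c-EV libraries together and at least 24.5-fold higher by the lower limit of the 95% exact interval. FvH4_2g38450 (chromosome 2, 27811431 to 27814655) reached 2.92 and 3.07 CPM, 22.9-fold above the same floor and at least 18.1-fold higher by the lower limit of that interval. Both passed the criterion of over 3 counts only through the FvMYB46-EV libraries, where they held 0.428 and 0.0778 CPM and 0.343 and 0.0778 CPM.

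**Figure D3:**
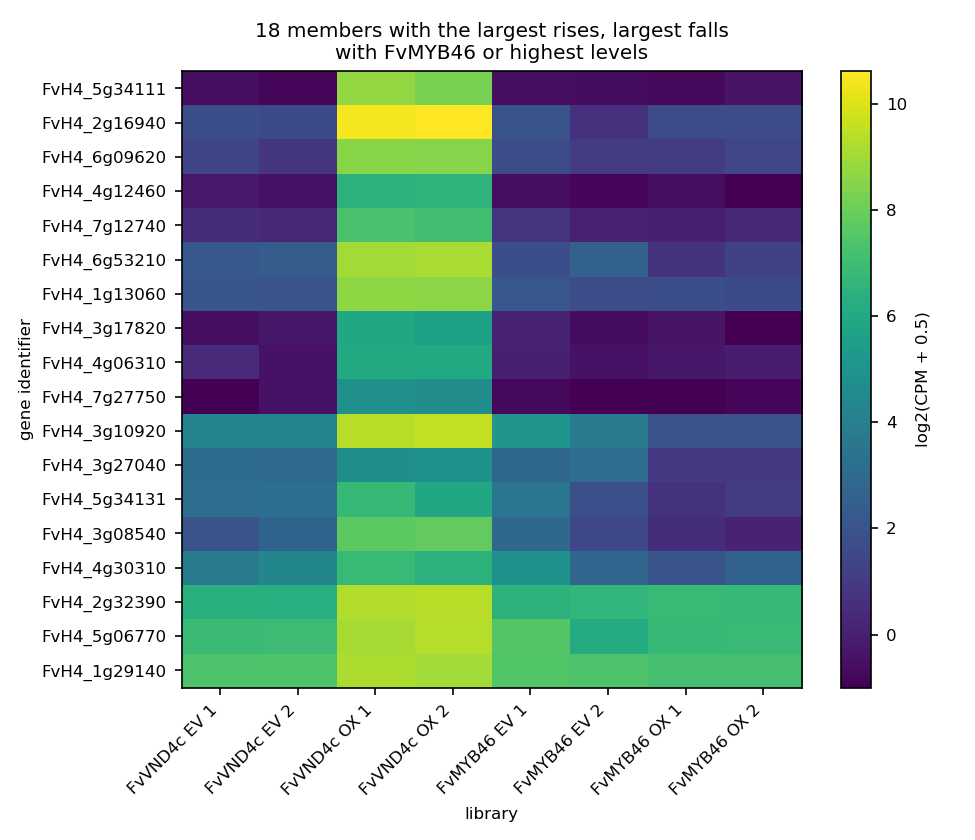
Rows are the 18 members with the largest FvVND4c log2 ratios, the lowest FvMYB46 log2 ratios or the highest CPM, columns are the 8 libraries, and the colour gives the level as log2(CPM + 0.5). The 2 FvVND4c-OX columns are the brightest in every row, and FvH4_2g16940 is the brightest row in them, with 1423 and 1569 CPM.

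Some members were already well counted in the controls and had smaller log2 ratios. FvH4_2g32390 (chromosome 2, 24554685 to 24559222) measured 82.7 and 79.0 CPM in FvVND4c-EV, 612 and 652 CPM in FvVND4c-OX, 91.9 and 99.4 CPM in FvMYB46-EV, and 111 and 110 CPM in FvMYB46-OX. Its FvMYB46-OX libraries lay above both of their controls, at a log2 ratio of 0.21, whereas the FvVND4c log2 ratio was 2.96. FvH4_1g29140 (chromosome 1, 21756629 to 21766758) measured 164 and 170 CPM in FvVND4c-EV and 576 and 515 CPM in FvVND4c-OX. Its FvMYB46-EV libraries, at 177 and 164 CPM, lay above its FvMYB46-OX libraries, at 145 and 148 CPM. FvH4_5g06770 (chromosome 5, 3984493 to 3986628, overlapping another gene) measured 121 and 125 CPM in FvVND4c-EV and 541 and 634 CPM in FvVND4c-OX. Its FvMYB46-EV libraries lay far apart, at 181 and 70.1 CPM, with the FvMYB46-OX libraries, at 110 and 117 CPM, in between.

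With FvMYB46 the members were not only flat. The log2 ratio ran from -2.51 to 0.49 with a median of -0.18, beside 0.01 over all genes. It was between -0.5 and 0.5 in 96 members and below 0 in 87. Both FvMYB46-OX libraries were above both FvMYB46-EV libraries in 15 members, where 31.3% of all genes showed that order. Both were below in 41 members (30.4%), where the share of all genes was 26.8%. Below all 4 EV libraries lay 28 members (20.7%), beside 19.9% of all genes. Because genes with a log2 ratio of 0.5 or more were left out, a lean to lower values follows from the choice of members.

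The edgeR quasi-likelihood fit over all genes gives the same picture as counts of calls, at an adjusted p under 0.05 and a log2 fold change over 1 in size. All 135 members were among the 18766 genes that the filter on low counts kept, and a scarce member could pass that filter through its FvVND4c-OX libraries alone. With FvVND4c 135 members were called higher, where 4.17% of all tested genes were. The fitted log2 fold changes ran from 1.62 to 11.41 with a median of 3.31. With FvMYB46, 0 members were called higher, where 10.1% of all tested genes were. At an unadjusted p under 0.05 there were 0 with a log2 fold change over 1 and 4 of any size, and DESeq2 called 0. Called lower were 17 members (12.6%), where 3.46% of all tested genes were, with a median over all members of -0.32. The rule used both contrasts, so nothing is read from these counts.

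The difference of the responses, FvVND4c minus FvMYB46, was called higher in 118 members, where 3.77% of all tested genes were, with a median of 3.79 on the log2 scale. The other 17 included FvH4_7g27750, with 3 pooled FvVND4c-EV counts, and, chosen after its values were seen, FvH4_5g02090, with 85 and 84 counts in those libraries. Between the overexpression groups, FvVND4c-OX was called above FvMYB46-OX in 130 members, where 3.19% of all tested genes were, with fitted differences from 0.14 to 11.01 and a median of 3.65. Both contrasts are made of the groups that chose the members, and they too are a description.

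The members that were lowered with FvMYB46 while raised with FvVND4c form the group that departs most from a flat response. Over all 18766 genes tested, 783 were called higher with FvVND4c, and 37 of these were also called lower with FvMYB46. The share of all tested genes called lower with FvMYB46 was 3.46%. Of the 37 genes, 17 were members. Genes with an FvMYB46 log2 ratio of 0.5 or more could not be members, so the share of members called lower follows in part from the choice. The fitted FvMYB46 log2 fold changes of these 17 members ran from -2.87 to -1.004 and their FvVND4c log2 ratios from 1.58 to 6.74. In 14 of the 17, both FvMYB46-OX libraries were below all 4 EV libraries, and in 3 they were not. That order was seen in 19.9% of all genes. The 17 were picked for a lower level in FvMYB46-OX, so nothing is read from that number.

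The lowest FvMYB46 log2 ratio belonged to FvH4_3g10920 (chromosome 3, 6464566 to 6466203). It measured 17.6 and 17.7 CPM in FvVND4c-EV, 656 and 741 CPM in FvVND4c-OX, 32.5 and 13.2 CPM in FvMYB46-EV, and 3.45 and 3.73 CPM in FvMYB46-OX. Its FvMYB46-OX libraries were below all 4 EV libraries and its FvVND4c-OX libraries above them, with log2 ratios of -2.51 and 5.27. The fitted FvMYB46 change was -2.66 on the log2 scale (SE 0.37) and was still -1.92 without the first FvMYB46-EV library.

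FvH4_3g27040 (chromosome 3, 20141058 to 20142711) had close replicates in all groups. It measured 8.21 and 7.57 CPM in FvVND4c-EV, 26.8 and 29.7 CPM in FvVND4c-OX, 7.19 and 8.25 CPM in FvMYB46-EV, and 1.38 and 1.44 CPM in FvMYB46-OX. The 4 EV libraries lay between 7.19 and 8.25 CPM, FvVND4c-OX stood above them and FvMYB46-OX below. The fitted FvMYB46 change was -2.46 on the log2 scale (SE 0.23) and stayed between -2.59 and -2.33 when a library was left out.

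In 3 further genes the FvMYB46-EV libraries lay apart, while both FvMYB46-OX libraries were below all 4 EV libraries. FvH4_3g08540 (chromosome 3, 4994531 to 4995642, overlapping another gene) measured 3.43 and 6.23 CPM in FvVND4c-EV, 206 and 224 CPM in FvVND4c-OX, 6.77 and 2.34 CPM in FvMYB46-EV, and 0.948 and 0.594 CPM in FvMYB46-OX. Its fitted FvMYB46 change was -2.53 on the log2 scale (SE 0.57), -1.64 without the first FvMYB46-EV library, and was no longer called without the second FvMYB46-OX library, at -2.25. FvH4_5g34131 (chromosome 5, 24821904 to 24828595) measured 8.75 and 9.09 CPM in FvVND4c-EV, 108 and 62.9 CPM in FvVND4c-OX, 11.2 and 3.04 CPM in FvMYB46-EV, and 1.12 and 1.61 CPM in FvMYB46-OX. Its fitted change was -2.36 on the log2 scale (SE 0.60), and the call was lost without the first FvMYB46-EV library, at -1.19, and without either FvMYB46-OX library, at -2.11 and -2.65.

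FvH4_4g30310 (chromosome 4, 30007904 to 30013202) measured 13.0 and 19.6 CPM in FvVND4c-EV, 115 and 88.6 CPM in FvVND4c-OX, 30.7 and 6.38 CPM in FvMYB46-EV, and 3.71 and 5.51 CPM in FvMYB46-OX. The second FvMYB46-EV library lay close to the FvMYB46-OX libraries and the first far above them. The fitted change of -1.99 on the log2 scale (SE 0.58) became -0.52 without the first FvMYB46-EV library, and the call was lost there, without either FvMYB46-OX library, with DESeq2, with no filter on low counts and in a fit of only 4 libraries. Its FvVND4c call was also lost without the first FvVND4c-EV library, at 2.47.

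FvH4_6g53210 (chromosome 6, 39050841 to 39051996) combined a large FvVND4c log2 ratio, 6.74, with a lower level in FvMYB46-OX. It measured 4.06 and 4.88 CPM in FvVND4c-EV, 506 and 557 CPM in FvVND4c-OX, 2.997 and 5.605 CPM in FvMYB46-EV, and 1.12 and 1.95 CPM in FvMYB46-OX. Both FvMYB46-OX libraries were below all 4 EV libraries, at a fitted change of -1.51 on the log2 scale (SE 0.37). The change was -0.94 without the second FvMYB46-EV library and -1.16 without the first FvMYB46-OX library, and the call was lost in both.

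**Figure D4:**
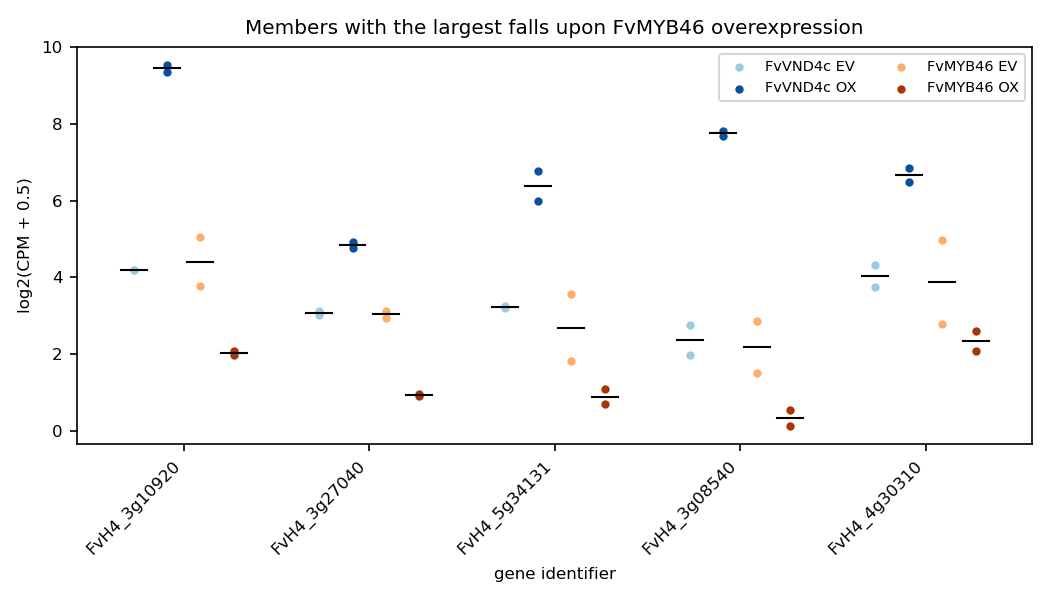
For the 5 members with the lowest FvMYB46 log2 ratios, each point is a library, the bar is the mean of the plotted values of the 2 libraries of a group, and the vertical axis is log2(CPM + 0.5). FvVND4c-OX is highest and FvMYB46-OX lowest in each, while the FvMYB46-EV libraries lie apart in all but FvH4_3g27040 (7.19 and 8.25 CPM).

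The 2 FvMYB46-EV libraries differed in the same direction over most members. The first was above the second in 108 members (80%), beside 60.6% of all genes and 81.2% of the genes raised by both factors. The median log2 ratio of the first to the second, 0.5 CPM added, was 0.42 over members and 0.08 over all genes. Over the 17 members with an FvMYB46 log2 ratio of -1 or lower it was 0.94, and the first library was higher in 14 of them. Of those 17, 15 were called lower in the full fit, 10 without the first FvMYB46-EV library, 16 without the second, 10 and 11 without the first and the second FvMYB46-OX library, and 14 with DESeq2. The part of the unequal controls in the lower FvMYB46 values was not tested. In FvVND4c-OX the same ratio had a median of 0.05 over members and 0.06 over all genes.

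The empty vectors of the experiments served as separate controls for the members, and they did not always agree. Their log2 ratio, FvMYB46-EV to FvVND4c-EV, had a median of 0.07 over members and -0.04 over all genes. Both FvMYB46-EV libraries were above both FvVND4c-EV libraries in 32 members (23.7%), where 17.2% of all genes showed that order, and both were below in 16 (11.9%), where 29% did. FvMYB46-EV was called higher in 10 members, where 0.618% of all tested genes were. It was called lower in 0 members, where 1.62% of all tested genes were, with 1 member at an unadjusted p under 0.05 and a log2 fold change over 1, and 0 by DESeq2. A low FvVND4c-EV level and a high FvMYB46-EV level both favour membership, so the choice of members bears on these counts as well. The experiment and the control cannot be told apart, since each experiment had its own.

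These 10 members are named after their values were seen. FvH4_1g11870 (chromosome 1, 6498128 to 6499701) measured 17.6 and 16.8 CPM in FvVND4c-EV, 87.0 and 89.3 CPM in FvVND4c-OX, 41.6 and 41.1 CPM in FvMYB46-EV, and 13.0 and 11.7 CPM in FvMYB46-OX. It was called lower with FvMYB46, yet its FvMYB46-OX level was not far below that of FvVND4c-EV. FvH4_1g01890 (chromosome 1, 985062 to 987065) measured 18.7 and 17.2 CPM, 55.4 and 53.6 CPM, 34.9 and 48.0 CPM, and 20.4 and 21.5 CPM in the same order. Its FvMYB46-OX libraries were below their own controls and above those of the FvVND4c experiment. FvH4_5g36920 and FvH4_6g39660 were the other 2 members that were both called lower with FvMYB46 and higher in FvMYB46-EV than in FvVND4c-EV.

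The remaining 6 were not called lower with FvMYB46. Their FvMYB46-OX levels lay above FvVND4c-EV, as did those of FvH4_1g01890, FvH4_5g36920 and FvH4_6g39660. FvH4_4g35790 measured 39.9 and 45.3 CPM in FvVND4c-EV, 159 and 190 CPM in FvVND4c-OX, 103 and 112 CPM in FvMYB46-EV, and 74.5 and 68.3 CPM in FvMYB46-OX. FvH4_5g29050 measured 6.04 and 5.13 CPM, 18.9 and 14.7 CPM, 12.1 and 11.4 CPM, and 11.5 and 12.9 CPM in that order. In both, the FvMYB46 libraries of either kind lay between FvVND4c-EV and FvVND4c-OX. FvH4_5g36910, FvH4_6g20130, FvH4_6g39680 and FvH4_6g52190 lay next to other members and are given with them. Measured against FvMYB46-EV in place of their own control, 113 of the 135 members kept an FvVND4c log2 ratio of at least 1.5, and 120 did against all 4 EV libraries. Measured against FvVND4c-EV, 117 kept an FvMYB46 log2 ratio under 0.5, and 126 did against all 4.

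**Figure D5:**
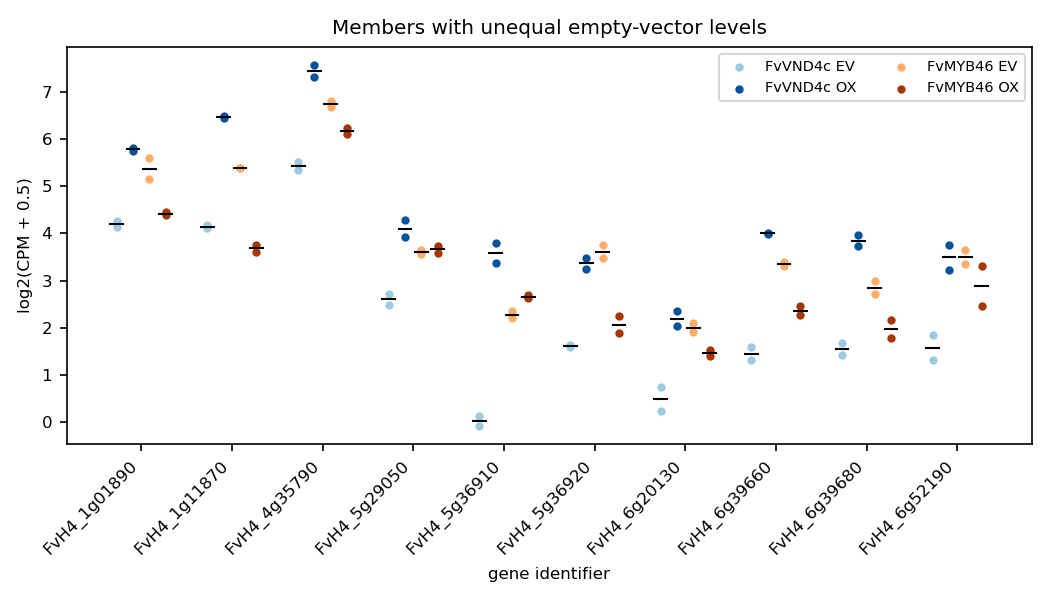
For the 10 members called higher in FvMYB46-EV than in FvVND4c-EV, each point is a library, the bar is the mean of the plotted values of the 2 libraries of a group, and the vertical axis is log2(CPM + 0.5). In FvH4_5g36920 the FvMYB46-EV libraries, at 10.6 and 12.9 CPM, reach the level of FvVND4c-OX, at 9.03 and 10.6 CPM.

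The members were spread over all 7 chromosomes, with 15, 16, 20, 21, 23, 28 and 12 on chromosomes 1 to 7, between 0.476% and 0.764% of the genes that passed the count criterion on each. Their gene span, introns included, had a median of 2193 bases (384 to 14683), shorter than the 3036 bases of all genes and the 2609 bases of the genes raised by both factors. On the plus strand lay 57 members (42.2%), beside 50.1% of all genes. The span of 19 members (14.1%) overlapped that of another gene, beside 13.8%, and in 17 the other gene was on the opposite strand. Whether strand was used in counting is unstated, so reads of overlapping genes cannot be told apart. The authors' TPM files list 117 members (86.7%), beside 81.1% of all genes, and the other 18 are absent from them.

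Some members lay side by side. With starts at most 20 kb apart, 26 members (19.3%) fell into 12 runs, beside 19 of the 239 genes raised by both factors (7.95%), and 8 of the 12 runs were on a single strand. At 10 kb there were 22 members in 10 runs and at 50 kb 31 members in 13 runs. In 10 cases the very next gene on the chromosome was also a member. Shares of other genes were counted only at 20 kb, so nothing is read from the other numbers. Whether neighbours are copies of each other, and so could share reads, is not known here.

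The longest runs held 3 members. On chromosome 5, FvH4_5g34130, FvH4_5g34131 and FvH4_5g34150 stood in a row on the plus strand between 24815344 and 24839109, and FvH4_5g34111, the gene with the largest log2 ratio, joined them at 50 kb. FvH4_5g34150, whose span overlaps another gene, measured 0.451 and 0.252 CPM in FvVND4c-EV, 10.9 and 9.83 CPM in FvVND4c-OX, 0.257 and 0.311 CPM in FvMYB46-EV, and 0.345 and 0.254 CPM in FvMYB46-OX. FvH4_5g34130 reached only 1.29 and 1.13 CPM in FvVND4c-OX on 2 pooled FvVND4c-EV counts, a ratio of 14.0 with a 95% exact interval of 3.50 to 121. Its FvVND4c call was lost when any of the 4 libraries of that experiment was left out and with DESeq2. These neighbours thus covered levels from 1.13 to 418 CPM in FvVND4c-OX, and only FvH4_5g34131 held over 1 CPM in the controls.

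The run on chromosome 6, between 38523231 and 38535602, held genes of unlike control levels. FvH4_6g52190 measured 1.98 and 3.11 CPM in FvVND4c-EV, 13.0 and 8.91 CPM in FvVND4c-OX, 9.68 and 12.1 CPM in FvMYB46-EV, and 9.48 and 5.003 CPM in FvMYB46-OX. Its FvVND4c-OX libraries overlapped those of FvMYB46, so its membership rested on the low FvVND4c-EV level. FvH4_6g52210 measured 0.18 and 0.252 CPM in FvVND4c-EV and 6.54 and 7.27 CPM in FvVND4c-OX, and at most 0.599 CPM in an FvMYB46 library. FvH4_6g52220 measured 0.18 and 0 CPM in FvVND4c-EV, 3.01 and 2.97 CPM in FvVND4c-OX, 1.37 and 0.234 CPM in FvMYB46-EV, and 0.172 and 0.170 CPM in FvMYB46-OX. On its 2 pooled FvVND4c-EV counts the ratio was 34.4, with a 95% exact interval of 9.13 to 290.

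In the pairs of neighbours, named after their values were seen, the response could be similar or very unequal. FvH4_6g18411 measured 3.70 and 2.19 CPM in FvVND4c-EV, 52.0 and 44.5 CPM in FvVND4c-OX, 2.65 and 0.856 CPM in FvMYB46-EV, and 0.862 and 1.10 CPM in FvMYB46-OX. Its neighbour FvH4_6g18420 measured 0.992 and 1.43 CPM, 68.3 and 60.5 CPM, 1.63 and 1.01 CPM, and 0.0862 and 0.254 CPM in the same order, and had the lowest fitted FvMYB46 change of the members called lower, -2.87 on the log2 scale (SE 0.53). Both lay between 44.5 and 68.3 CPM in FvVND4c-OX, but their FvVND4c log2 ratios were 3.83 and 5.25, and FvH4_6g18411 was not called with FvMYB46. FvH4_4g32180 and FvH4_4g32190 were closer, with log2 ratios of 2.62 and 3.02, and went from 2.71 and 3.20 CPM to 19.4 and 22.1 CPM and from 3.97 and 4.29 CPM to 37.2 and 37.1 CPM between FvVND4c-EV and FvVND4c-OX.

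FvH4_2g16910, in a run with FvH4_2g16940 but on the opposite strand, went only from 9.11 and 8.75 CPM in FvVND4c-EV to 54.2 and 57.6 CPM in FvVND4c-OX, with 8.56 to 10.2 CPM in the FvMYB46 libraries. FvH4_6g20120 was well counted throughout, at 89.9 and 92.3 CPM in FvVND4c-EV, 348 and 394 CPM in FvVND4c-OX and 158 to 189 CPM in the FvMYB46 libraries. Its neighbour FvH4_6g20130 held 1.17 and 0.673 CPM in FvVND4c-EV, 3.61 and 4.61 CPM in FvVND4c-OX, 3.77 and 3.27 CPM in FvMYB46-EV, and 2.15 and 2.37 CPM in FvMYB46-OX. The FvMYB46 libraries of both thus lay above FvVND4c-EV whether or not FvMYB46 had been overexpressed.

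The same held for 2 pairs in which both genes were called higher in FvMYB46-EV. FvH4_5g36910 measured 0.451 and 0.589 CPM in FvVND4c-EV, 9.804 and 13.4 CPM in FvVND4c-OX, 4.11 and 4.59 CPM in FvMYB46-EV, and 5.69 and 5.94 CPM in FvMYB46-OX. Beside it, FvH4_5g36920 measured 2.62 and 2.52 CPM, 9.03 and 10.6 CPM, 10.6 and 12.9 CPM, and 3.19 and 4.24 CPM in that order. One neighbour was therefore higher and the other lower in FvMYB46-OX than in FvMYB46-EV. FvH4_6g39660 measured 1.98 and 2.52 CPM, 15.5 and 15.7 CPM, 9.42 and 10.04 CPM, and 4.31 and 5.003 CPM, and its neighbour FvH4_6g39680 measured 2.71 and 2.19 CPM, 12.7 and 15.2 CPM, 7.45 and 6.07 CPM, and 3.96 and 2.97 CPM. These latter genes kept the same order of groups, with FvVND4c-OX highest, then FvMYB46-EV, then FvMYB46-OX and FvVND4c-EV lowest.

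The genes nearest the thresholds had levels that would move across them with small changes. Just inside the FvVND4c threshold, at 1.5, were FvH4_6g40430, with 60.7 and 55.4 CPM in FvVND4c-EV and 181 and 149 CPM in FvVND4c-OX, and FvH4_3g37350, with 0.18 and 0.337 CPM and then 1.46 and 1.84 CPM. Just outside, at 1.49, were FvH4_7g15930, with 1.08 and 1.09 CPM and then 3.96 and 3.99 CPM, and FvH4_7g11980, with 0.721 and 0.589 CPM and then 2.84 and 2.66 CPM. At the FvMYB46 threshold, FvH4_5g36810, at 0.49, had 95.2 and 86.7 CPM in FvMYB46-EV and 132 and 125 CPM in FvMYB46-OX. FvH4_6g39500, at 0.48, had 0.685 and 0.623 CPM and then 0.862 and 1.36 CPM. Just outside were FvH4_7g05640, with 4.62 and 3.58 CPM and then 7.07 and 5.003 CPM, and FvH4_4g08641, with 0.599 and 0.778 CPM and then 1.29 and 1.10 CPM, both at 0.51. FvH4_5g36810 shows that a member could have both FvMYB46-OX libraries above its controls and still be counted as not raised.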

How the data were processed

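RNA-seq of *F. vesca* fruits gave 8 libraries, 2 in each of 4 groups. The authors trimmed reads with fastp 0.20.1, mapped them to genome v4.0.a2 with HISAT2 2.2.1, removed PCR duplicates with SAMtools 1.9 and deposited raw read counts per gene from featureCounts 2.0.3. The sources used here do not give the strand setting. The authors also deposited TPM values for 17698 genes, which equal the counts over the whole gene span, rescaled; these were used only to see which genes they list.

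CPM were counts over the library sum. The fit was edgeR 4.0.16 (R 4.3.3, limma 3.58.1), with filterByExpr, TMM scaling, the quasi-likelihood test and Benjamini-Hochberg adjustment over 18766 genes, in 1 fit of 4 groups. It was also run on counts simulated with its own estimates of the spread, for the FvVND4c contrast alone. That run cannot show whether those estimates suit the measured libraries. The biological coefficient of variation was 0.107. The standard error was the fold change over the square root of F. Alternatives included DESeq2 1.42.0, other scalings, filters and pseudocounts, a replicate block, and each library left out. Group-wise permutation tests were not run, because 2 libraries against 2 cannot reach the threshold.

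Members and lists were chosen with earlier results of these data known. Members named are the 10 largest FvVND4c log2 ratios, the 5 lowest FvMYB46 log2 ratios with groups that do not overlap (both with a mean of at least 1 CPM), the 5 highest CPM in FvVND4c-OX, runs of 3, the 2 genes on each side of each threshold, and members with no FvVND4c-EV count. Others are said to be chosen after their values were seen.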

Additional observations from a re-analysis of the deposited data

How the results depend on the processing

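The number of members, 135, became 190 with 0.1 CPM added (125 shared), 123 with 1 CPM, 146 with TMM-scaled totals, 115 with over 10 counts in EV, 161 with no count criterion, 125 against all 4 EV libraries (112 shared) and 184 against the EV of the other experiment (105 shared). Leaving out a library gave 113 to 145, the lowest without the first FvMYB46-EV library (109 shared).

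With at least 10 counts in every library, which leaves out scarce genes, 67 members were called higher with FvVND4c, 66 for the difference of the responses and 65 between the overexpression groups. How many members that filter kept was not counted, so the lower numbers do not show how many calls were lost among members still tested. With no fold threshold, 2 members were called higher and 27 lower with FvMYB46, and 2 were called higher with FvMYB46 against all 4 EV libraries. The share of all tested genes called was not counted for these alternatives, so nothing is read from the numbers. With 1 library left out, members called ranged from 122 to 135 higher with FvVND4c, 0 to 4 higher with FvMYB46 (4 without the first FvMYB46-EV library), 11 to 23 lower with FvMYB46 (11 without the first FvMYB46-OX library), 106 to 120 for the difference, 7 to 12 higher and 0 to 7 lower between the empty vectors (7 without the first FvMYB46-EV library), and 123 to 131 between the overexpression groups. A lone sample was assumed to vary like the other groups.

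Same-numbered libraries share only a number (correlations of their deviations 0.195 for FvVND4c and 0.151 for FvMYB46, with 2 pairs each). With the replicate block, 135 members were called higher with FvVND4c, 0 higher and 17 lower with FvMYB46, 120 for the difference, 10 higher and 0 lower between the empty vectors and 131 between the overexpression groups.

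For changes of named members that were called in the main fit, 486 of 509 alternative values kept direction and call, 23 lost the call and 0 reversed. A gene that an alternative filter left out gave no value there and is not among those that lost the call. Besides those given above, calls with FvVND4c were lost for FvH4_3g37350 (2.34, 3.24 and 2.51 on the log2 scale without the first or second FvVND4c-EV or the second FvVND4c-OX library, and 2.79 with DESeq2) and FvH4_6g39500 (1.84 without the first FvVND4c-EV library).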
